A study of Mus musculus with 4 samples.

Results

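Grin2b-positive maturing granule neurons were described here as the cells of a cerebellar preparation that carried the granule neuron factor Neurod1 together with at least 2 UMIs of Grin2b. A UMI, or unique molecular identifier, counts 1 captured transcript. The members were chosen by measured values: at least 1000 genes, at least 2000 UMIs, at most 10% mitochondrial UMIs, 0 Ptprc UMIs and at most 2 Col1a2 UMIs, then at least 1 Neurod1 UMI, at least 2 Grin2b UMIs, at least 1 of Reln, Cadps2 and Gria2, 0 UMIs of Gad1, Gad2 and Eomes, and at most 1 UMI summed over Mki67, Top2a and Cenpf. They numbered 1665 of 62925 deposited barcodes, of which 18313 passed the quality limits. The libraries NdpWT 1, NdpWT 2, NdpKO 1 and NdpKO 2 held 618, 233, 206 and 608 members, and values of the 4 libraries are given in that order throughout.

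Cerebellar granule neurons arise from Atoh1-expressing progenitors on the outer surface of the cerebellum, just under the meninges. The progenitors divide in response to Sonic hedgehog, leave the cell cycle, switch on Neurod1, grow parallel fibre axons and migrate inward, where they mature and receive glutamatergic mossy fibre input. Grin2b encodes the GluN2B subunit of NMDA-type glutamate receptors, the subunit of young granule neurons, and mature cells replace it with GluN2C. Reln encodes the secreted migration cue reelin, Cadps2 a factor for dense-core vesicle release and Gria2 an AMPA receptor subunit.

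The libraries came from a preparation labelled as subdural meningeal cells of the cerebellum, profiled by droplet sequencing of transcript 3' ends. All mice, the controls included, carried 1 copy of the Neurod2-SmoA1 transgene, in which a Neurod2 promoter drives an activated form of Smoothened, the Hedgehog transducer, on a C57/BL6 background. NdpWT animals were wild type for Ndp, which encodes the secreted Wnt-pathway ligand norrin, and NdpKO animals were knockouts. Each genotype has 2 libraries, each a pool of 5 cerebella, and the labels give postnatal days 6 to 8 in one place and 7 to 9 in another. Since a library mixes animals, the spread between libraries is the only replicate error here.

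**Figure D1:**
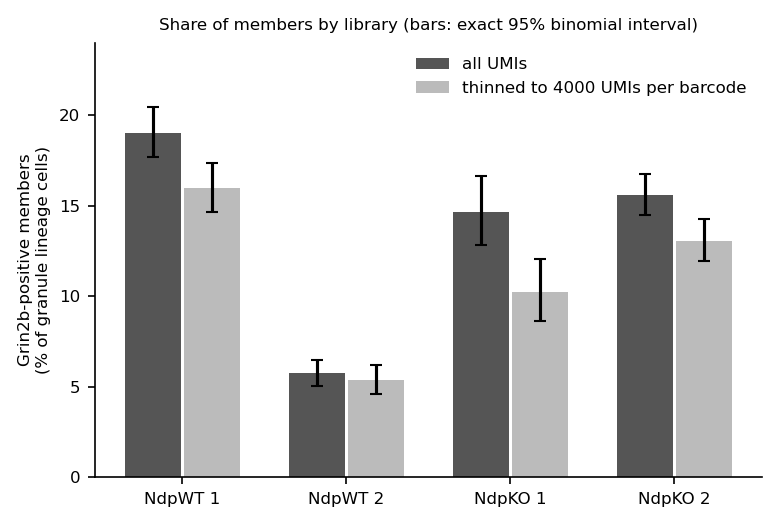
Grin2b-positive members as a percentage of granule lineage cells in each library (y axis), counted on all UMIs (dark bars) and after thinning each barcode to 4000 UMIs (light bars), with exact 95% binomial intervals. NdpWT 2 is the lowest library at 5.74%, and both NdpKO libraries lie between the 2 NdpWT libraries.

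The members carried the markers of granule neurons. The 9 granule lineage markers summed to 8550, 7651, 9356 and 8139 CPM (a gene's UMI count scaled to all UMIs of the class), and every member had at least 3 of them. Neurod1, which the rule requires, is 1 of the 9. The sum was 2906 to 3936 CPM in Atoh1-positive progenitors and 3526 to 4444 CPM in granule neurons without detected Grin2b. In those classes 3215 of 3287 and 2425 of 2682 cells had at least 3. Mapt, the axonal microtubule protein tau and the 1 marker given with the label that the rule did not use, was detected in 91.7%, 80.3%, 86.9% and 87.3% of members. Of the Purkinje cell markers, Skor2 was at 0 in all 4 libraries and the 6 markers summed to at most 7.08 CPM. Lmx1a, a marker of unipolar brush cells, was at 0 in all 4 libraries, but the 5 markers of that type summed to 165, 89.2, 56.6 and 98.9 CPM. The same sum was 76.4 to 134 CPM in Atoh1-positive progenitors and 29.1 to 80.4 CPM in granule neurons without detected Grin2b. The 5 markers of nuclear or other glutamatergic neurons summed to 120 to 143 CPM, against 74.1 to 95.6 and 55.9 to 89.3 CPM in those 2 classes. The GABA transporter gene Slc32a1 reached at most 0.676 CPM. The 6 GABAergic interneuron markers still summed to 336 to 439 CPM, nearly all of it Lhx1, at 335, 438, 361 and 376 CPM. They summed to 321 to 425 CPM in Atoh1-positive progenitors. Of the genes listed for mature granule neurons, some were scarce and others common. Rbfox3 was detected in 87.6%, 82.8%, 98.0% and 89.7% of members with 2 Grin2b UMIs. Gabra6, the GABA-A subunit of mature granule neurons, had 0 UMIs in 3 libraries and 5 UMIs in 1 cell of NdpKO 2. The counts of 0 allow up to 0.560, 2.03 and 1.33 CPM in NdpWT 1, NdpWT 2 and NdpKO 1. Grin2c, the mature NMDA subunit, had 2, 1, 0 and 0 UMIs.

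Transcripts of other cells were also present. Haemoglobin and other red cell markers summed to 19411 to 37290 CPM in members. The 6 endothelial markers summed to 47.8 and 93.3 CPM in NdpWT and 276 and 191 CPM in NdpKO members, all 6 being detected in each library. Mural markers summed to 42.3 to 233 CPM, oligodendrocyte markers to 114 to 156 CPM, astroglial markers to 251 to 684 CPM and fibroblast markers to 148 to 348 CPM. Ttr, a choroid plexus gene, was found in 28.8% of NdpWT 2 members and in 28.8% of that library's endothelial cells, against 0.971% to 2.59% of members of the other libraries. At least 2 Grin2b UMIs were seen in 3.80%, 0.647%, 2.31% and 2.42% of endothelial reference cells, whose median depths were 11530, 8652, 20647 and 10802 UMIs against 8706, 6099, 10917 and 7433 UMIs in members. Barcode sequences shared between pairs of libraries numbered 48 to 98, and 1 was a member in both NdpWT 1 and NdpKO 1.

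Most members met the rule with room to spare. Grin2b had 2 UMIs in 27.3% of members, 3 or 4 in 38.0% and 5 or more in 34.7%. Reln was detected in 89.3%, Cadps2 in 90.8% and Gria2 in 94.7% of members, and 78.6% had all 3. Just outside the limit stood 618 cells with 1 Grin2b UMI that met the rest of the rule, against 455 just inside with 2. Another 15 cells had enough Grin2b but none of Reln, Cadps2 and Gria2. Mapt, on either side of the limit, was lower outside in all 4 libraries: cells with 1 Grin2b UMI had 281, 214, 121 and 300.0 CPM and cells with 2 had 419, 390, 308 and 379 CPM.

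From the cells just outside the limit to the members with the most Grin2b, several genes of maturing neurons stood higher and Ccnd2 lower. This is a description over bins of cells that share a library, with no test, and the bin of 1 UMI holds no members. Mapt was higher at every step from 1 to 5 or more Grin2b UMIs in all 4 libraries, to 696, 510, 551 and 656 CPM. Plxna2, a semaphorin receptor of migrating neurons, was also higher at every step in 4 of 4 libraries, and its level in cells with 5 or more UMIs was 1.61 to 2.70 times that in cells with 2. Sez6, Zmat4, Neurod2, Zic1, Rbfox3, Snap25 and Gabra2 were likewise higher at every step in all 4. Other neuronal genes looked at kept this order less often: Arpp21 and L1cam in 3 libraries, Kcna1 in 2, Kcnd2 and Stmn2 in 1 and Slc17a7 in 0. Between the bins of 2 and of 5 or more UMIs, Kcna1 and Kcnd2 were higher in all 4, Stmn2 in 3 and Slc17a7 in 2. Ccnd2, the cyclin D2 of granule progenitors, was lower at every step in all 4, from 763, 978, 1055 and 756 CPM at 1 UMI to 201, 290.4, 220.1 and 275 CPM at 5 or more. Cntn2, the axonal adhesion protein TAG-1 of young granule neurons, showed no such order, with ratios of 0.985 to 1.12 between the same bins. Ptch1, the Hedgehog receptor, had ratios of 0.715 to 1.01. Median depth was also higher in the bin of 5 or more UMIs than in the bin of 2: from 8293, 6002, 9686 and 7210 UMIs it went to 9036, 6485, 11632 and 7914 UMIs. Its part in these levels was not tested.

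**Figure D2:**
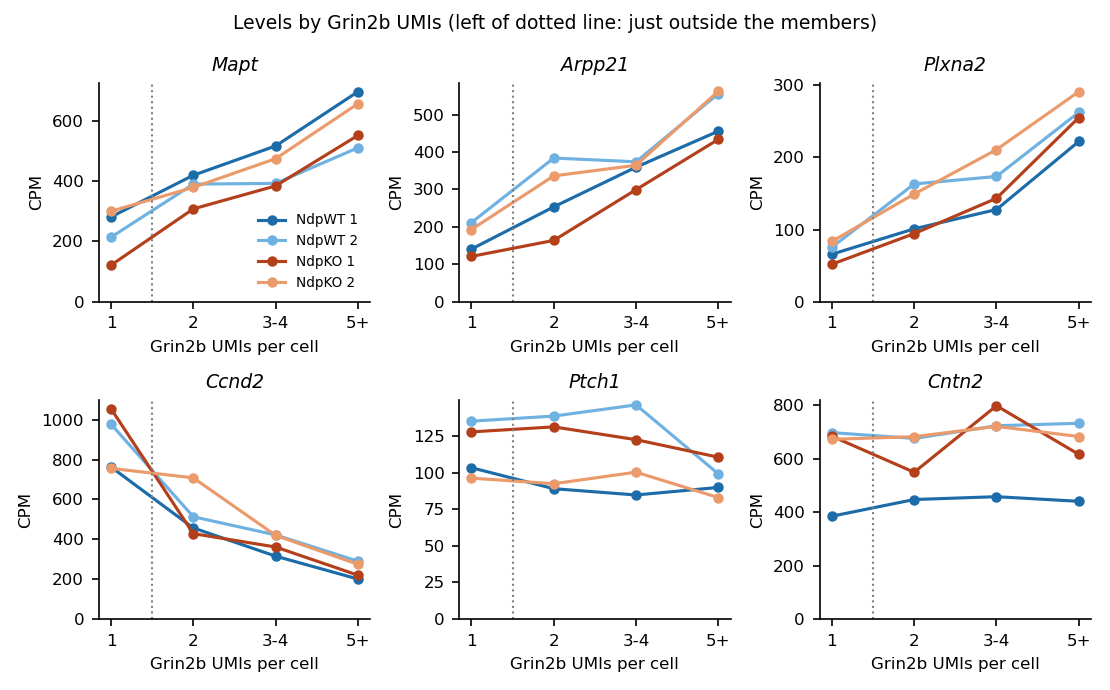
Levels of 6 genes in CPM (y axes) in cells with 1, 2, 3 to 4 and 5 or more Grin2b UMIs (x axes), 1 line per library. Mapt and Plxna2 are higher at every step in all 4 libraries and Ccnd2 is lower at every step, while Ptch1 and Cntn2 keep no common order.

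Promoter sequences show transcription starts of genes that set the members most apart from progenitors. Of the 12 genes with the largest rise over progenitors among those with a mean of at least 20 CPM, 5 had an entry in the RefSeq promoter table (GRCm38.p6), and 3 are printed, each as the 250 bases before a transcription start, 5' to 3' on the gene's strand. L1cam (chrX:73880835-73881084, minus strand) encodes an axonal adhesion protein, Ube2ql1 (chr13:69739898-69740147, minus strand) a ubiquitin-conjugating enzyme family member, and Fat2 (chr11:55312258-55312507, minus strand) a large cadherin of granule neurons. Capitals mark CAGATG, an E-box of the kind bound by Neurod factors.
L1cam: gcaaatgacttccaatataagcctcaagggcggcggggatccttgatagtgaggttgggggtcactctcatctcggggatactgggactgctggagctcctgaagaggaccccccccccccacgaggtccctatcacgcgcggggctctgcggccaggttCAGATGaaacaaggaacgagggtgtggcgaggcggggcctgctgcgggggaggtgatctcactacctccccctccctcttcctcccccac
Ube2ql1: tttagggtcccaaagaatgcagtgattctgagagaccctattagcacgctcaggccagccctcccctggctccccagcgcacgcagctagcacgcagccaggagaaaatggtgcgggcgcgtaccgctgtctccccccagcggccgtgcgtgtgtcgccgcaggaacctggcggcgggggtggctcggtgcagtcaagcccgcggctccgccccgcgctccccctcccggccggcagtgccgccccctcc
Fat2: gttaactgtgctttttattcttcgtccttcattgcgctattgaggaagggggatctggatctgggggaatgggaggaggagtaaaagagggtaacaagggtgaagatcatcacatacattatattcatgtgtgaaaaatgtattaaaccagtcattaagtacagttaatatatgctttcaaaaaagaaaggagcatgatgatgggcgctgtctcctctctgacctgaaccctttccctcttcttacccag
Both strands were searched for CAGATG and for TTGGC, a half-site of NFI factors, which do not overlap each other. The printed L1cam window holds 1 CAGATG, 90 bases before the start, and the other printed windows hold no match to either. This L1cam start lies inside the span of the gene, which is given below. A second L1cam window (chrX:73880791-73881040), not printed, overlaps it and holds the same CAGATG 134 bases before its own start. Whether the Ube2ql1 and Fat2 starts also lie inside the spans of their genes was not tested. CAGATG occurred in 14.4% and TTGGC in 41.5% of 32851 promoter windows of the same length. A match is a description of the letters only.

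Members differed widely from Atoh1-positive progenitors, the dividing stage of the same lineage, in receptors, channels, synapse and axon genes. These progenitors met the same quality limits with at least 1 Atoh1 UMI, 0 Grin2b and 0 Gad1, Gad2 and Eomes UMIs, and numbered 632, 1282, 451 and 922 cells with median depths of 14388, 10820, 21626 and 14047 UMIs. Sums per library and class were compared by edgeR's quasi-likelihood test with library as a block. Of 12843 genes outside the rule, 4423 were higher in members (34.4%) and 4702 lower (36.6%) at an adjusted p under 0.05, and 15.2% and 16.5% also changed at least 2-fold. In purer cells of both classes, as defined further on, 36% of genes were higher and 37.3% lower, and 15.7% and 16.9% also by at least 2-fold. The classes were set apart by expression, so genes that vary with the gated ones follow the gate, and the test shows only that a difference repeated over the 4 libraries. Counts of a list are therefore to be read against these shares.

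The potassium channel gene Kcna1 (Kv1.1; chromosome 6, 126640397 to 126646384, minus strand) showed one of the largest rises. Members had 127, 100.0, 106 and 131 CPM and progenitors 1.08, 0.681, 0.300 and 1.03 CPM, so the classes did not overlap (log2 difference 7.05 ± 0.14 SE, edgeR adjusted p = 1.1e-15). The axon adhesion gene L1cam (chromosome X, 73853778 to 73896105, minus strand), with a promoter window printed above, stood at 189, 162, 241 and 172 CPM against 3.89, 4.02, 5.59 and 5.00 CPM (log2 5.21 ± 0.09). Adamts18, Zmat4, Wscd2, Sez6, Hecw1, Rasgef1c, Ube2ql1, Fat2 and the unnamed transcript Gm42912 were also among the 12 above that level, with log2 differences of 5.01 to 7.07. Each of them was higher in 4 of 4 libraries.

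Of the voltage-gated ion channel list, 30 of 33 tested genes were higher in members than in progenitors and 0 lower, with a median log2 difference of 1.91 against −0.01 over all genes tested. Kcnd2, an A-type potassium channel, rose by 4.04 ± 0.11, and Cacna1e, an R-type calcium channel, by 3.89 ± 0.08. The 3 that did not pass included Kcnq3, at 16.0, 16.9, 17.7 and 22.7 CPM in members and 8.86, 15.8, 17.6 and 21.3 CPM in progenitors. Of the cytoskeleton list, 23 of 24 were higher and 0 lower (median 1.94). Mapt stood at 567, 414, 448 and 513 CPM in members and 17.9, 20.6, 16.0 and 18.6 CPM in progenitors (log2 4.58 ± 0.09, adjusted p = 2.8e-12, edgeR). Kif5b, a kinesin heavy chain found in most cells, did not pass (log2 −0.07 ± 0.04).

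Synapse genes of both sides were mostly higher. In the synaptic vesicle and release list 26 of 30 tested were higher and 1 lower, with a median of 1.79. Sv2a, a vesicle membrane protein, rose by 3.94 ± 0.09 and Rab3a, a vesicle GTPase, by 3.21 ± 0.08, while Sypl, a relative of synaptophysin found outside neurons, fell by 1.10 on the log2 scale. In the adhesion and organiser list 20 of 29 were higher and 4 lower (median 1.12). Lrrtm2, a postsynaptic neurexin partner, rose by 4.11 ± 0.13, from 4.43, 2.93, 3.097 and 2.79 CPM in progenitors to 65.1, 51.4, 66.8 and 65.6 CPM in members. Glutamate receptor genes other than NMDA subunits were higher in 7 of 12 and lower in 2, and GABA-A receptor and chloride transporter genes higher in 5 of 9 and lower in 1. Gabra2, the GABA-A subunit alpha 2 of young neurons, rose by 3.48 ± 0.10.

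Of the NMDA subunits other than Grin2b, 4 were tested against progenitors, named here after their values were seen. Grin1, the obligatory subunit, was higher at 30.2, 25.7, 20.4 and 38.8 CPM against 0.757, 1.09, 0.200 and 0.588 CPM (log2 5.28 ± 0.25, edgeR adjusted p = 2.1e-11). Grin2a was higher by a log2 difference of 0.78, from levels of at most 6.19 CPM. Grin3a and Grin2c were lower, with log2 differences of −2.58 and −3.64, and Grin2c stood at 2.92, 3.34, 3.90 and 1.47 CPM in progenitors.

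Axon growth, guidance and migration genes were higher in 28 of 34 and lower in 4 (median 1.51). Plxna2 rose by 4.17 ± 0.08, the collapsin response gene Dpysl3 by 4.03 ± 0.14 and Cntn2 by 3.88 ± 0.16. The netrin receptor gene Dcc fell, from 229, 243, 249 and 202 CPM in progenitors to 87.7, 111, 119 and 85.6 CPM in members. Among mature granule neuron genes 12 of 14 tested were higher and 2 lower. Fat2, at 29.8, 33.8, 55.8 and 40.5 CPM in members, rose by 5.01 ± 0.21, and Rbfox3, the nuclear protein NeuN, by 2.11 ± 0.05. The 2 that were lower were Grin2c and Etv1, a transcription factor of maturing granule neurons that fell by 2.08 on the log2 scale.

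Hedgehog pathway genes were mostly lower in members. Every animal carried activated Smoothened, so the effect of the transgene was not tested. The list also holds cyclin genes such as Ccnd1 and Ccnd2, which can follow the cell cycle limit of the rule. Of 21 tested, 4 were higher and 15 lower than in progenitors (median −2.23). Gli1, a transcriptional output of the pathway, was at 1.12, 2.03, 0.885 and 1.501 CPM in members, resting on 6, 3, 2 and 7 UMIs, and at 40.0, 46.1, 55.8 and 40.6 CPM in progenitors (log2 −5.17 ± 0.18, adjusted p = 3.6e-13, edgeR). Ccnd1, cyclin D1, fell by 4.82 and Sfrp1 by 3.19 on the log2 scale. Smo was at 24.3, 35.1, 34.1 and 38.0 CPM in members and fell by 1.11, and Ptch1, at 87.9, 134, 119 and 92.2 CPM, fell by 1.26. Whether Smo tags include transcripts of the transgene was not tested. Neurod2, whose promoter drives the transgene, went the other way, with 201, 199, 250.4 and 273 CPM against 11.7, 5.18, 19.4 and 19.9 CPM (log2 3.95 ± 0.29). Cell cycle genes were lower in 21 of 22 tested, and the 12 largest falls at a mean of at least 20 CPM were of mitotic, cohesion and histone genes, led by Kif2c. The limit on Mki67, Top2a and Cenpf makes this a description of the rule. Of norrin and Wnt genes 6 of 20 were higher and 8 lower: Axin2, a feedback target of Wnt signals, rose by 2.01 ± 0.12 and the nuclear factor gene Tcf7l2 fell by 2.28 on the log2 scale.

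Lineage transcription factors were higher in 20 of 34 and lower in 7. Zic1, a zinc finger factor of granule cells, rose by 1.33 ± 0.04, while Barhl1, a homeobox factor of progenitors, fell by 1.10 on the log2 scale. Reelin and neurotrophin genes were higher in 8 of 11 and lower in 1: Ntf3, the neurotrophin NT-3, rose by 2.11 ± 0.12 and its receptor gene Ntrk3 fell by 2.87. Immediate early and dissociation genes were higher in 9 of 19 and lower in 4, with a median of 0.22.

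**Figure D3:**
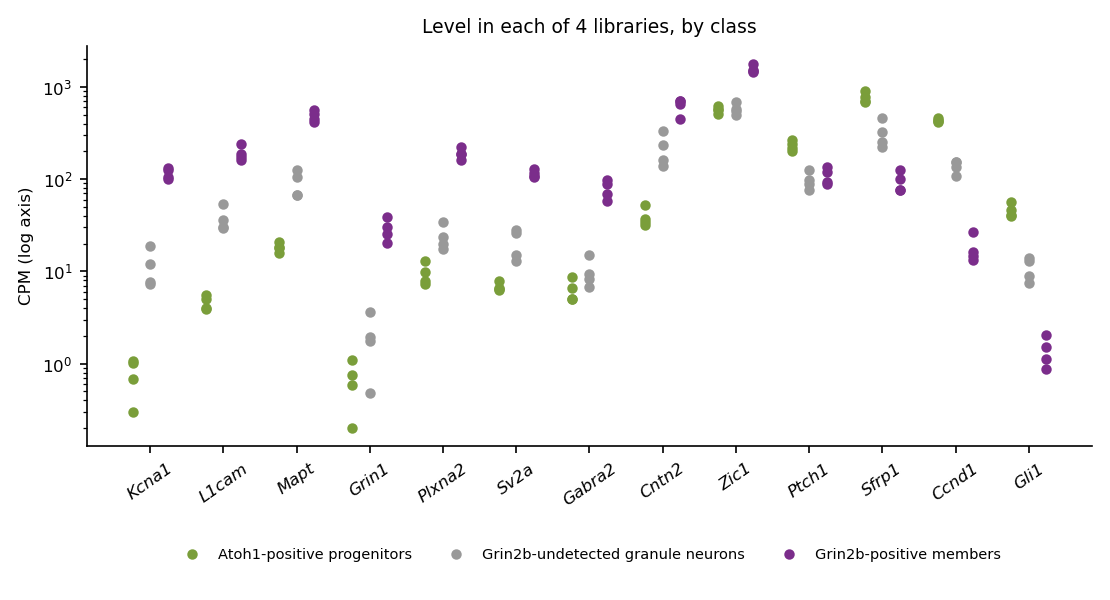
Level in CPM on a log axis (y axis) of the genes named on the x axis in Atoh1-positive progenitors, Grin2b-undetected granule neurons and Grin2b-positive members, 1 point per library. Kcna1, L1cam and Mapt are highest in members in every library, and Ccnd1 and Gli1 are lowest there.

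The nearest class by the rule was granule neurons in which Grin2b was not detected. They had at least 1 Neurod1 UMI, 0 UMIs of Atoh1, Grin2b, Gad1, Gad2 and Eomes, and the same cell cycle limit, and they numbered 711, 903, 254 and 814 cells with median depths of 4782, 6144, 4395 and 5246 UMIs. Its 8 granule progenitor markers summed to 477 to 808 CPM, against 208 to 345 CPM in members and 3538 to 4214 CPM in Atoh1-positive progenitors. This class held transcripts of other cells: its endothelial markers summed to 783 to 1099 CPM, its oligodendrocyte markers to 193 to 1505 CPM and its macrophage markers to 70.0 to 592 CPM. Each result is therefore also given in purer cells, with at least 3 of 5 pan-granule markers and fewer than 3 markers each of endothelial, mural, macrophage and oligodendrocyte cells, a limit chosen after seeing the data. Fibroblast, astroglial and red cell markers were not limited. Of 1665 members, 298, 165 and 1179 had at least 3 of them, in that order. Of 12425 genes tested, 3518 were higher in members (28.3%) and 3812 lower (30.7%), and 7.78% and 14.7% also by at least 2-fold. In purer cells 25.7% of 11222 genes were higher and 25.4% lower, and 6.13% and 7.46% also by at least 2-fold.

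The 12 largest rises among genes with a mean of at least 20 CPM had log2 differences of 3.02 to 4.12. Sez6, a dendritic membrane protein, stood at 139, 95.3, 119 and 126 CPM in members and 10.7, 6.97, 6.32 and 10.1 CPM in the undetected class (log2 3.66 ± 0.10; 3.48 in purer cells). Ryr2, the ryanodine receptor calcium release channel, rose by 3.25 ± 0.15 and by 2.88 in purer cells. Arpp21, a cAMP-regulated phosphoprotein, had 374, 412, 335 and 426 CPM against 39.1, 39.7, 19.9 and 53.8 CPM. Kcna1 rose by 3.20 ± 0.14 and Lrrtm3, a synaptic organiser, by 3.06 ± 0.20. The other members of the 12 were Gm42912, Adamts18, Car10, Lrp1b, Adra2c, Ube2ql1 and Plppr4, and in purer cells all 12 kept a log2 difference of 2.71 to 3.60.

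The 12 largest falls at the same level limit included replication genes and endothelial genes. Mcm3 and Ung act in DNA replication or repair. Cdca7, Mcm3 and Ung had log2 differences of −3.83, −3.63 and −3.40, and of −4.19, −4.0003 and −3.80 in purer cells. C1ql1, a secreted C1q-family protein, had a log2 difference of −3.35, and of −3.70 in purer cells. Ctla2a and the endothelial gene Clec14a had log2 differences of −4.07 and −3.37, against −0.25 and −0.81 in purer cells (adjusted p = 0.57 and 0.10, edgeR). Rasip1, Adgrl4 and Gkn3 were not tested in purer cells.

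By list, voltage-gated ion channels were higher in 26 of 32 tested and lower in 2 (26 and 0 in purer cells), cytoskeleton genes in 23 of 24 and 0 (22 and 0), and synaptic vesicle genes in 25 of 29 and 1 (25 and 0). Synaptic adhesion genes were higher in 22 of 29 and lower in 3 (20 and 1 in purer cells), axon genes in 23 of 35 and 8 (25 and 5) and mature granule genes in 11 of 13 and 2 (11 and 1). Other glutamate receptors were higher in 8 of 10 and lower in 1 (9 and 1 in purer cells), GABA-A and chloride transporter genes in 7 of 8 and 0 (4 and 0) and reelin and neurotrophin genes in 9 of 11 and 1 (8 and 1). Lineage transcription factors were higher in 24 of 34 and lower in 6 (17 and 7 in purer cells), and of 2 NMDA subunits tested Grin1 was higher and Grin3a lower. Cell cycle genes were higher in 1 of 22 and lower in 21 (1 and 20 in purer cells). Hedgehog genes were higher in 3 of 20 and lower in 13 (2 and 14 in purer cells), where Ccnd2 had 301, 430, 308 and 444 CPM in members and 932, 1242, 1135 and 1057 CPM in the undetected class. Ptch1 did not pass against this class (log2 0.04 ± 0.08), whereas in purer cells its log2 difference was −0.32 (adjusted p = 0.0019, edgeR). Immediate early and dissociation genes differed between the 2 settings: 17 of 21 were lower and 1 higher in all cells, and 1 lower and 5 higher in purer cells. Norrin and Wnt genes likewise went from 12 lower and 7 higher of 20 to 5 lower and 4 higher.

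**Figure D4:**
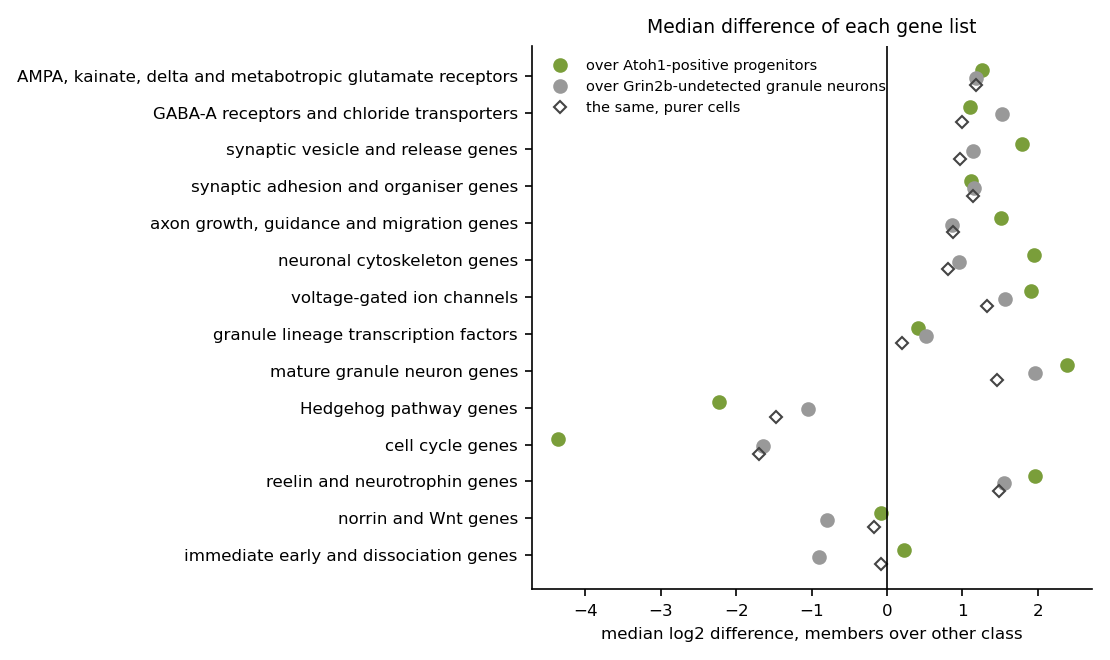
Median log2 difference of members over progenitors (green) and over Grin2b-undetected granule neurons (grey) for 14 gene lists (y axis). Open diamonds give the comparison with Grin2b-undetected granule neurons in purer cells of both classes. Neuronal lists lie above 0, Hedgehog and cell cycle lists below it, and the norrin, Wnt, immediate early and dissociation lists move towards 0 in purer cells.

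The share of members did not separate the genotypes. Members made up 19.0%, 5.74%, 14.7% and 15.6% of granule lineage cells, defined as cells within the quality limits with Neurod1 or Atoh1 and without Gad1, Gad2 and Eomes. The means were 12.4% ± 9.39 in NdpWT and 15.1% ± 0.661 in NdpKO (SD, n = 2 each), a difference of 2.74 percentage points with an exact 2-sided permutation p = 1, where the smallest p this design allows is 0.3333. NdpWT 2 stood apart: without it the difference turned to −3.90 points, and without NdpWT 1 it was 9.38 points. Because the rule needs 2 Grin2b UMIs, shares were also taken after thinning each barcode to 4000 UMIs, leaving out 631, 688, 243 and 700 shallower lineage cells, and were then 16.0%, 5.35%, 10.2% and 13.1%.

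Between genotypes, only 3 genes passed in members, and all 3 are genes of endothelial cells. The question was whether these neurons differ when norrin is missing. Of 11477 genes tested, 3 were higher in NdpKO (0.0261%) and 0 lower (0%) at an adjusted p under 0.05 by edgeR, with 3.62% at an unadjusted p under 0.05 (2.51% higher and 1.11% lower), and DESeq2 called 6 higher and 0 lower. These counts depended on single libraries: edgeR called 1 higher and 3 lower without NdpWT 1, 28 higher and 16 lower without NdpWT 2, 4 and 3 without NdpKO 1, and 8 and 1 without NdpKO 2. It called 47 higher and 20 lower with no filter on low counts. Tm4sf1 (chromosome 3, 57285611 to 57301988, minus strand), a membrane protein abundant in endothelium, had 8.95, 17.6, 70.4 and 86.6 CPM (log2 2.75 ± 0.27, adjusted p = 0.0077). Sox17 (chromosome 1, 4490931 to 4497354, minus strand), a transcription factor of arterial endothelium, had 2.43, 2.70, 23.5 and 21.4 CPM (log2 3.12 ± 0.34, adjusted p = 0.0077). Gja4 (chromosome 4, 127311421 to 127314039, minus strand), the gap junction protein connexin 37, had 2.80, 4.06, 19.0 and 22.5 CPM (log2 2.70 ± 0.34, adjusted p = 0.023). For all 3, both NdpKO libraries lay above both NdpWT libraries, as did 17.4% of all genes tested. Leaving out NdpWT 1 ended the calls of Sox17 (adjusted p = 0.13, edgeR) and Gja4 (0.47), and leaving out NdpKO 2 that of Gja4 (0.12).

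The UMIs of these genes sat in few members. In all, 16 members, 3, 2, 3 and 8 by library, had at least 3 of the 6 endothelial markers. They held 72.9%, 0%, 89.3% and 88.1% of the Tm4sf1 UMIs of the members, and 1 member each held 114 of 159 in NdpKO 1 and 302 of 404 in NdpKO 2. Of the Sox17 UMIs they held 84.6%, 0%, 98.1% and 96.0%. Once the 38, 8, 9 and 18 members with at least 3 endothelial, mural, macrophage or oligodendrocyte markers were left out, Tm4sf1 stood at 2.63, 10.5, 8.10 and 10.7 CPM (log2 0.87 ± 0.58, edgeR adjusted p = 1.00) and the genotypes overlapped. Sox17 then had 2, 4, 1 and 4 UMIs and Gja4 1, 5, 3 and 9, too few to be tested. With those members left out, edgeR called 0 of 11182 genes, and 246 had an unadjusted p under 0.05.

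**Figure D5:**
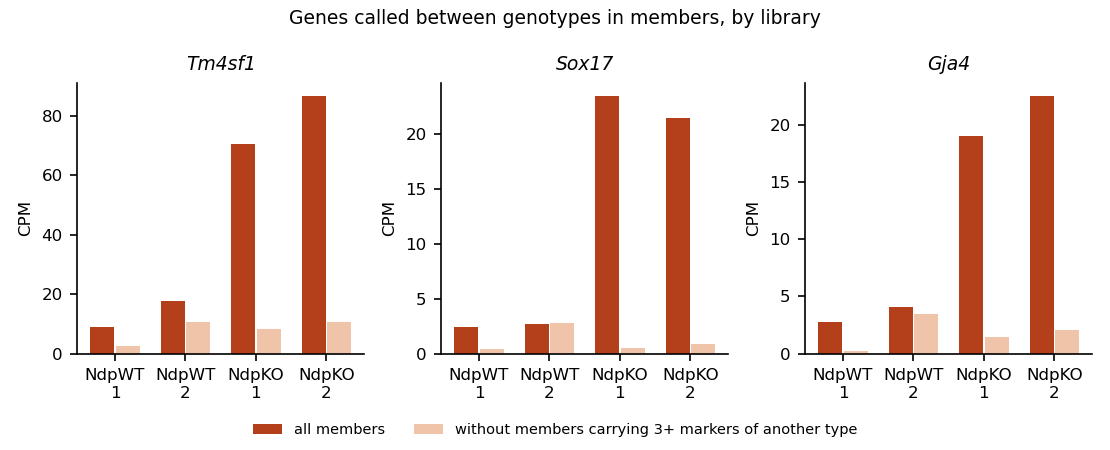
Tm4sf1, Sox17 and Gja4 in CPM (y axes) by library (x axes) in all members (dark bars) and without members that carried at least 3 endothelial, mural, macrophage or oligodendrocyte markers (light bars). In all members both NdpKO libraries are the highest, and without those members no NdpKO library exceeds 10.7 CPM of Tm4sf1.

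Among the genes of lowest p that did not pass, some are known from endothelium. Ramp2, an endothelial receptor subunit, had 11.01, 12.2, 27.4 and 34.7 CPM (adjusted p = 0.12), and Ptprb, an endothelial phosphatase, 20.1, 18.2, 41.6 and 39.7 CPM (0.36), both by edgeR. Without the marker-carrying members the log2 difference of Ptprb went from 1.04 to −0.77, and that of Klf2, a flow-responsive factor of endothelium, from 0.89 to −0.74. Mfap4, Tmem181a, Vegfc, Vim and Eln were the others higher in NdpKO, with adjusted p of 0.51 to 0.74. On the lower side stood the platelet factor gene Pf4 and Lyz2, which macrophages express, with 42.2, 33.1, 23.0 and 11.6 CPM and 26.5, 27.0, 19.5 and 12.01 CPM, while macrophage markers summed to 91.4, 59.5, 53.1 and 24.2 CPM in members. Apoe, Pgm1, Ntng1, Fam210b, Dock11 and Haus1 followed, none with an adjusted p below 0.72. Ntng1, a synaptic netrin relative, had 51.7, 52.7, 37.2 and 28.5 CPM.

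The genotype effect in members differed from that in the Grin2b-undetected class for 3 of 13379 genes (0.0224%; 3.24% at an unadjusted p under 0.05), Sox17, Ramp2 and Cavin2, by edgeR's test of the difference. No gene of the neuronal lists passed between genotypes. Of the voltage-gated channels 0 of 31 were called, of the axon genes 0 of 33, of the synaptic vesicle genes 0 of 29, of the lineage transcription factors 0 of 33 and of the norrin and Wnt genes 0 of 18, with list medians of 0.10, 0.10, 0.00, 0.08 and 0.04 on the log2 scale. Of the other lists, 0 of 16 Hedgehog genes, 0 of 24 cytoskeleton genes, 0 of 26 adhesion genes and 0 of 20 cell cycle genes were called. The cell cycle list had a median of −0.30, with 17 of 20 genes lower in NdpKO. In 6 of 20 both NdpKO libraries lay below both NdpWT libraries, as in 12.3% of all genes tested. The rule limits Mki67, Top2a and Cenpf in every library. Axon genes were higher in NdpKO in 27 of 33, with both NdpKO libraries above in 11 and below in 0. Lineage transcription factors were higher in 23 of 33, with 10 above and 0 below. Of all genes tested, 17.4% lay above and 12.3% below, and the median log2 difference was −0.003. The counts of genes by direction were not tested. Cytoskeleton genes had 4 above and 6 below. Mapt had a log2 difference of −0.06 ± 0.17, Ptch1 of −0.07 ± 0.22 and Smo of 0.33 ± 0.22 (adjusted p = 1.00 each, edgeR). Neurod2 was above the NdpWT range in both NdpKO libraries (log2 0.37 ± 0.14) but had an adjusted p of 1.00, like Mapt. Among the rule's genes, given without a test, Grin2b stood at 529, 532, 453 and 533 CPM, Reln at 384, 406, 466 and 414 CPM, Cadps2 at 485, 502, 537 and 545 CPM and Gria2 at 551, 565, 731 and 657 CPM. Ndp itself had 11, 1, 0 and 3 UMIs in members and was not tested. Its 0 in NdpKO 1 allows up to 1.33 CPM, against 2.05, 0.676 and 0.643 CPM in NdpWT 1, NdpWT 2 and NdpKO 2, so Ndp could not check the genotype in these cells. Its receptor gene Fzd4 had 2.61, 4.06, 7.08 and 4.07 CPM.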

How the data were processed

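Single cells of 4 libraries were measured by droplet 3' sequencing (10x Chromium v3.1). The deposited values are raw UMI counts per gene and barcode, which the authors obtained from Cell Ranger 6.1.2 with the mm10 build, per the submitters' processing notes. Removal of doublets or free RNA before deposit is not stated there. No correction for free RNA was made. Of 32285 features, 32158 matched GENCODE M21 (GRCm38) by identifier, and coordinates are 1-based.

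Cells were selected by the limits given in the text and counts were summed per library and class, since cells are not replicates. The sums of members came to 5360149, 1479560, 2259996 and 4662650 UMIs. Sums were tested with edgeR 4.0.16 (robust quasi-likelihood, TMM) under R 4.3.3 after filterByExpr at a minimum of 10 UMIs, and p was adjusted by Benjamini-Hochberg over all genes (threshold 0.05). Comparisons between classes had library as a block, and SE come from the same fit. P-values between genotypes rest on 2 libraries each, and counts differed between every pair of libraries by more than sampling noise (ratio of chi-square to degrees of freedom 3.51 to 8.28). The ratio was 7.74 between the NdpWT libraries and 6.35 between the NdpKO libraries. Against NdpKO 1 and NdpKO 2 it was 8.28 and 7.76 for NdpWT 1, and 4.16 and 3.51 for NdpWT 2. CPM are plain shares of a class's UMIs. Exact binomial intervals and limits from a count of 0 (3 counts) cover counting error only. Scrublet (scanpy 1.11.5) marked 4, 1, 0 and 4 members; it marked 0 barcodes in all of NdpKO 1 and so did not work there, and its calls were removed only as an alternative.

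The members and the gene lists were chosen with earlier results of these data known. The genes named are those called between genotypes and up to 8 of lowest p with libraries that do not overlap and at least 20 CPM, the 12 largest changes in each direction against each class, and up to 5 changed at least 2-fold and 2 not passing per list. Some genes that this rule names are not reported here. Genes of the rule were left out of every call. Endothelial reference cells had at least 4 of the 6 endothelial markers. The fits were tested on simulated data with 200 changed genes each. The simulated sums did not model UMIs that sit in few cells. The fit between genotypes recovered 121 of the 2-fold changes with 20 false calls, and 179 of the 4-fold changes with 35. The test of the difference in genotype effect recovered 85 and 161, with 27 and 20 false calls. The comparisons with undetected cells and with progenitors recovered 156 and 160 of the 2-fold changes, with 8 and 18 false calls. Alternatives were other scaling, DESeq2 1.42.0, no filter, Grin2b limits, depth windows, doublet removal, a replicate block, leaving out each library, and purer cells.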

Additional observations from a re-analysis of the deposited data

Results flagged for a closer look

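For 3 genes the genotype difference in members was not the same as in Grin2b-undetected granule neurons, by edgeR's test of the difference itself over 13379 genes (0.0224% called). On the log2 scale the effect in members exceeded that in the other class by 2.77 ± 0.36 for Sox17 (adjusted p = 0.017), by 1.65 ± 0.22 for Ramp2 (adjusted p = 0.017) and by 1.89 ± 0.28 for Cavin2, a caveolar protein (adjusted p = 0.041). All 3 are expressed in endothelial cells, whose summed markers stood at 47.8 and 93.3 CPM in NdpWT and 276 and 191 CPM in NdpKO members, and at 783 to 1099 CPM in the other class. In purer cells the values were 0.50 for Ramp2 and 0.44 for Cavin2 (adjusted p = 1.00 each), and Sox17 was not tested. In cells of 5000 to 15000 UMIs none of the 3 was called: Sox17 stood at 0.66 ± 0.84 (adjusted p = 1.00), Ramp2 at 1.12 ± 0.32 (0.60) and Cavin2 at 1.47 ± 0.41 (0.52). With median-of-ratios scaling Cavin2 missed the threshold (adjusted p = 0.070), while Sox17 and Ramp2 passed (0.027 each).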

How the results depend on the processing

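The number of genes called between genotypes in members, 3, was 6 with DESeq2, 67 with no filter beyond 1 UMI, 1 with Grin2b of at least 1 UMI and 0 without members carrying markers of other types, and ranged from 4 (without NdpWT 1) to 44 (without NdpWT 2) when 1 library was left out, keeping 1 to 3 of the 3 genes. The replicate block gave 32 calls (25 higher, 7 lower), including all 3 genes. Leaving out marker-carrying members and the purer cells were chosen after seeing the data. Per the labels, every NdpWT run was matched by litter to an NdpKO run, but no label says that equal replicate numbers mark the match. The deviations of same-numbered libraries correlated at r = 0.12 over 11500 genes. With 2 pairs this does not establish a pairing, and it does not exclude one. The number of genes whose genotype effect differed between classes, 3, was 49 with no filter, 9 with cells of 5000 to 15000 UMIs, none of them among the 3, and 0 in purer cells; the causes were not tested. Ptprb and Klf2 reversed to −0.77 and −0.74 without marker-carrying members. The share difference ranged from −3.90 to 9.38 points without 1 library each. Calls against undetected cells ranged from 4887 to 8082 and against progenitors from 7803 to 9766. Depth limits genes such as Ndp, Gabra6 and Grin2c.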
